A study of Mus musculus with 16 samples.

Results

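The regions described here are 2745 stretches of H3K36me3 that were shorter than 10 kb, were found in every usable H3K36me3 library, and lay within 5 kb of a stretch of H3K4me3. They were chosen by merging the H3K36me3 peaks of 5 libraries wherever peaks shared at least 1 bp or abutted. This gave 77590 merged regions, of which 16247 were touched by all 5 libraries and are called stable. The 2745 members made up 3.54% of the merged regions. The rule used the positions of H3K36me3 and H3K4me3 peaks, so the presence of both marks at a member is a property of the choice and not a result. The H3K4me3 regions that counted were the 14489, of 20660 merged, that all 4 H3K4me3 libraries touched, and these are called shared.

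H3K36me3 is laid down on nucleosomes behind elongating RNA polymerase II by a methyltransferase that travels with the polymerase, and it marks the bodies of transcribed genes, usually more strongly toward their 3′ ends. H3K4me3 sits on nucleosomes around the start sites of active or poised genes. H3K27me3 is deposited by the Polycomb complex PRC2, marks repressed genes, and is rarely found on the same nucleosome tails as H3K36me3. In stem cells, promoters that carry both H3K4me3 and H3K27me3 are called bivalent and are known for genes of low expression.

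All samples were primary hematopoietic stem cells from the bone marrow of wild-type C57BL/6 mice, sorted with the gate SP-KSL-CD150+, which joins dye efflux to surface markers and enriches for long-term stem cells. Old mice were 24 months of age and young mice 4 months of age, and no treatment separated them. H3K36me3 was mapped by chromatin immunoprecipitation and sequencing in old replicates 4, 5 and 6 and young replicates 4, 5 and 6. H3K27me3 was mapped in old replicates 1, 2 and 3 and young replicates 1, 2 and 3, and H3K4me3 in old replicates 7 and 8 and young replicates 7 and 8. In the labels every sample is described as a technical replicate under a biological replicate's number, with no word on which animals were pooled or shared. The p-values therefore measure only how far these samples differ, and that spread may be technical. A mark in sorted cells is an average, so that fewer cells carrying it and less of it per cell cannot be told apart. No annotation of the files' mouse build, mm9, was used here, so the gate could not be checked against marker genes and regions are given by mm9 position without gene names.

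Some libraries stood apart. The H3K36me3 list of young replicate 4 held 6399 peaks over 5.90 Mb, against 39362 to 84437 peaks over 41.6 to 138 Mb in the other 5, and the rule left it out. Young replicate 5 covered 41.6 Mb and had a median peak width of 354 bp, the narrowest of the 6 lists, while young replicate 6 covered 138 Mb, the most. For H3K27me3, young replicate 1 touched 1.48% of shared H3K4me3 regions, against 12.5 to 15.3% in the other 5 libraries, and its values are given apart. In size it did not stand apart, with 46988 islands over 169 Mb, against 17752 to 47197 islands over 123 to 179 Mb in the others. Later comparisons use H3K27me3 at these same regions, so setting this library apart was not independent of them. Read depth is not given in the sources used here, and peak number and covered length depend on it.

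The members were a few kilobases wide. Their width ran from 1061 to 9990 bp with a median of 4816 bp, and the interquartile range was 3387 to 6836 bp. The long stable blocks of at least 10 kb numbered 2218 and had a median width of 13232.5 bp, up to 64758 bp. The 11284 stable regions under 10 kb that had no shared H3K4me3 region within 5 kb were slightly narrower than the members, at a median of 4024.5 bp.

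At the width limit, the members chr6:47906414-47916403 and chr4:43577644-43587624 were 9990 and 9981 bp wide, and the nearest regions outside it were 10015 and 10037 bp wide. At the distance limit, the members chr5:121253818-121256472 and chr7:46785276-46794273 lay 4995 and 4994 bp from H3K4me3, while the nearest regions outside both lay 5007 bp away. The values on both sides of each limit were close to each other.

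Most members lay beside H3K4me3 without touching it. The median gap to the nearest shared H3K4me3 region was 1698 bp (interquartile range 411 to 3246 bp). Only 417 members (15.2%) overlapped shared H3K4me3, with a median overlap of 472 bp, and 14 lay wholly inside it. Gaps above 0 and under 1 kb were found for 581 members (21.2%), gaps of 1 kb to under 3 kb for 959 (34.9%) and gaps of 3 kb to 5 kb for 787 (28.7%).

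The arrangement was mostly one-sided. Without overlap, 2142 members (78.0%) had shared H3K4me3 within 5 kb on 1 side and 186 (6.78%) had it on both sides. A single shared H3K4me3 region lay within 5 kb of 2396 members (87.3%), 2 lay within 5 kb of 315 and 3 within 5 kb of 34.

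Many members had further H3K36me3 close by. Another merged H3K36me3 region, stable or not, lay within 1 kb of 1749 members (63.7%), at a median gap of 476 bp over all members. Another stable region lay within 5 kb of 1226 (44.7%). Joining peaks up to 1 kb apart before applying the rule left 2007 members.

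Coverage by H3K36me3 peaks rose with distance from the edge of the H3K4me3 neighbour on the member side. This was measured for the 2109 members that had 1 neighbour and no overlap, in steps of 250 bp. In all 5 libraries the step from 5250 to 5500 bp had the highest coverage, with 47.8, 63.4 and 63.6% of bases under peaks in old replicates 4, 5 and 6, and 29.2 and 76.1% in young replicates 5 and 6. A maximum close to 5 kb is built into the rule, which requires the member to begin within that distance, so its position is a description only.

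The rule asks for H3K36me3 on the member side and asks nothing of the far side, so the difference between the sides is set by the choice and is given as a description. On the far side the highest coverage of any step within 12 kb was 10.7, 16.2 and 18.2% in old replicates 4, 5 and 6, and 7.78 and 21.04% in young replicates 5 and 6. A second stable region lay within 5 kb on the far side for 323 of the 2109 members (15.3%). Counting any peak of a library, the share was 16.03, 22.5 and 25.5% in old replicates 4, 5 and 6, and 21.1 and 29.8% in young replicates 5 and 6, so the ages overlapped.

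**Figure D1:**
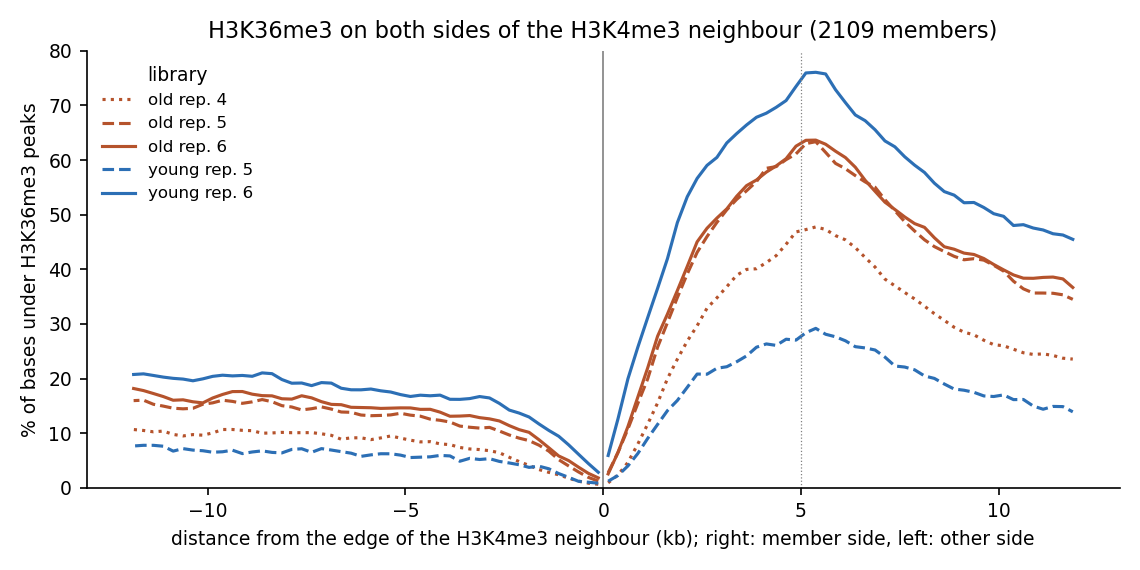
Percent of bases under H3K36me3 peaks (vertical axis) by distance in kb from the edge of the H3K4me3 neighbour, with the member side to the right of 0 and the other side to the left, for 2109 members with 1 neighbour and no overlap. Each line is a library, old in orange and young in blue, and the dotted vertical line marks the 5 kb limit. Coverage on the member side is highest at 5250 to 5500 bp in all 5 libraries, between 29.2% and 76.1%, and on the other side it stays at or below 21.04%.

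Most H3K4me3 neighbours had a single member. Of the 2822 shared H3K4me3 regions with a member within 5 kb, 2535 had 1, 268 had 2 and 19 had 3. The first 3 of these 19 by position were chr1:37485766-37488247, chr2:90584504-90587513 and chr3:87732851-87735625. Around the neighbour on chromosome 1, a member of 9145 bp lay on one side and members of 2924 and 3728 bp on the other. The widest of them, chr1:37475080-37484224, was covered over 7001, 7033 and 5869 bp in old replicates 4, 5 and 6, and over 4086 and 8865 bp in young replicates 5 and 6.

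Within members, the covered length differed more between libraries than between ages. The median covered length was 2312, 3364 and 3444 bp in old replicates 4, 5 and 6, and 1394 and 4133 bp in young replicates 5 and 6. The young libraries were thus the lowest and the highest, with all old libraries between them. As a share of a member's width, the median covered was 54.3, 75.1 and 75.3% in the old libraries and 31.1 and 89.4% in young replicates 5 and 6.

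Young replicate 5 broke the members into more pieces. A member held on average 1.48, 1.55 and 1.86 separate peaks in old replicates 4, 5 and 6, against 3.29 and 1.77 in young replicates 5 and 6. The distance from a library's own nearest peak to H3K4me3 had medians of 2836, 2329 and 2212 bp in old replicates 4, 5 and 6, and 2752 and 1876 bp in young replicates 5 and 6. Old replicate 4 had the longest median distance and young replicate 6 the shortest.

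The peaks in members ranked below those of long blocks, and above or below those of all stable regions depending on the library. The score percentile is the share of peaks in a list with a lower score than the highest peak in the member. Its median over members was 65.4, 77.2 and 84.9 in old replicates 4, 5 and 6, and 81.8 and 87.6 in young replicates 5 and 6. Over all 16247 stable regions, members and long blocks included, it was 72.5, 79.2 and 82.1 in the old libraries and 79.2 and 85.9 in young replicates 5 and 6. Over long blocks it was 90.7 to 96.9. Over stable regions under 10 kb far from H3K4me3 it was 69.5, 75.3 and 77.1 in the old libraries and 73.3 and 82.2 in young replicates 5 and 6. The rule, which asks for a peak in every list, was not independent of rank. The wider the member, the higher the rank, with a median of the mean percentile over the 5 libraries of 58.1 for 515 members under 3 kb, 73.5 for 1271 members of 3 kb to under 6 kb and 84.6 for 959 wider ones. The highest score was taken over all peaks of a member, whatever its width.

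**Figure D2:**
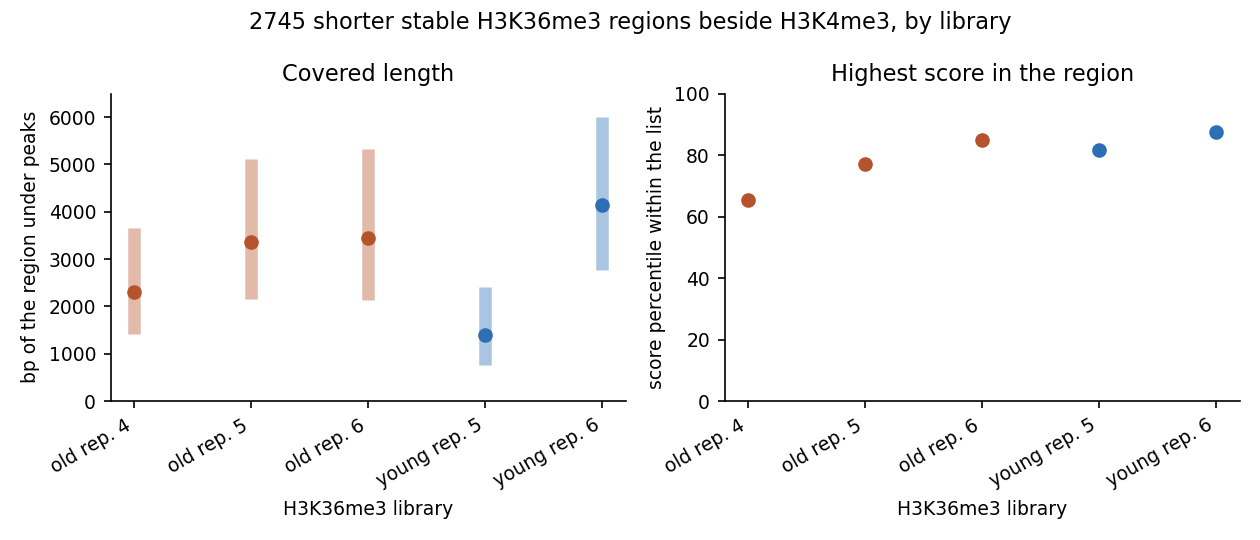
Left, length in bp of each member under H3K36me3 peaks, with the median over 2745 members as a point and the interquartile range as a bar, for old replicates 4, 5 and 6 and young replicates 5 and 6. Right, the median percentile of the highest score in a member within its own list, from 0 to 100. The young libraries hold the lowest median length, 1394 bp, and the highest, 4133 bp.

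The 5 members with the highest mean score percentile were chr13:67233741-67242895, chr8:72285744-72295653, chr18:90753310-90763167, chr8:108941432-108950911 and chr7:46785276-46794273. Each had a score of at least 3100 in all 5 lists, a value at which the scores pile up, and their mean percentiles were 99.3 to 99.4. Their widths were 8998 to 9910 bp. Over chr8:72285744-72295653, H3K36me3 covered 8179, 8013 and 7619 bp in old replicates 4, 5 and 6, and 6979 and 8836 bp in young replicates 5 and 6. Its H3K4me3 neighbour, chr8:72297999-72299313, lay 2345 bp away and was short, with 1028 and 1114 bp covered in old replicates 7 and 8 and 816 and 873 bp in young replicates 7 and 8.

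Young H3K36me3 replicate 4, the library that the rule did not use, touched 157 members (5.72%). It touched 19.5% of the long blocks, 8.62% of the stable regions far from H3K4me3 and 3.35% of all merged regions. With 1 library no test was possible. The 157 members were wide and high in rank, at a median of 6420 bp and a mean percentile of 92.1, against 4737.5 bp and 75.1 for the 2588 members it did not touch. Its highest scores in members were at chr18:90753310-90763167, chr12:117292041-117300987, chr8:72285744-72295653, chr17:33134770-33143116 and chr7:46785276-46794273, and all 5 had a score of at least 3100 in the other 5 libraries too. Requiring it to cover at least 50% of a member left 0.109%.

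The next comparison asked whether members carried more or less H3K36me3 in old than in young stem cells. Covered length was tested on log2(bp + 200) with limma over all 45120 merged regions covered in at least 2 of the 5 libraries. No region passed an adjusted p of 0.05 by limma with Benjamini-Hochberg adjustment (0% of those tested), the lowest adjusted value being 0.378. Without adjustment, at a limma p under 0.05, there were 187 regions with more coverage in old (0.414%) and 736 with less (1.63%), of which 6 and 0 were members. Members are by choice covered in all 5 libraries. A fit over the 16247 regions with such coverage gave 114 with more and 1 with less, of which 10 and 0 were members.

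Few members separated the ages in covered length. In 121 members (4.41%) all 3 old libraries exceeded both young libraries, against 4.05% of all regions tested. In 1 member (0.0364%) all 3 fell below both, against 5.12%. Because the rule requires presence in all 5 libraries, the 16247 stable regions are the closer comparison, and among them the shares were 5.85% above and 0.0677% below. To count in either direction, the old libraries had to pass both young replicate 5, the lowest over members, and young replicate 6, the highest.

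The direction of the age difference depended on which young library was used. The median log2 difference over members, old minus young, was 0.27, against 0.34 over all stable regions and 0.06 over all regions tested. It was 0.92 with young replicate 6 left out and -0.38 with young replicate 5 left out. Relative to young replicate 5, 2669 members (97.2%) had more coverage in the old mean, and relative to young replicate 6 only 320 (11.7%) had. Sample titles carry an unexplained number, and within 18, the number that old replicate 6 and young replicate 5 share, the median was 1.06. With each library centred on its own median, the value was -0.045. Leaving out young replicate 6 gave 964 members with more coverage in old at an unadjusted p under 0.05, with a smallest adjusted p of 0.0520 by limma. These were 35.1% of members, beside 8392 of 36035 regions tested (23.3%).

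**Figure D3:**
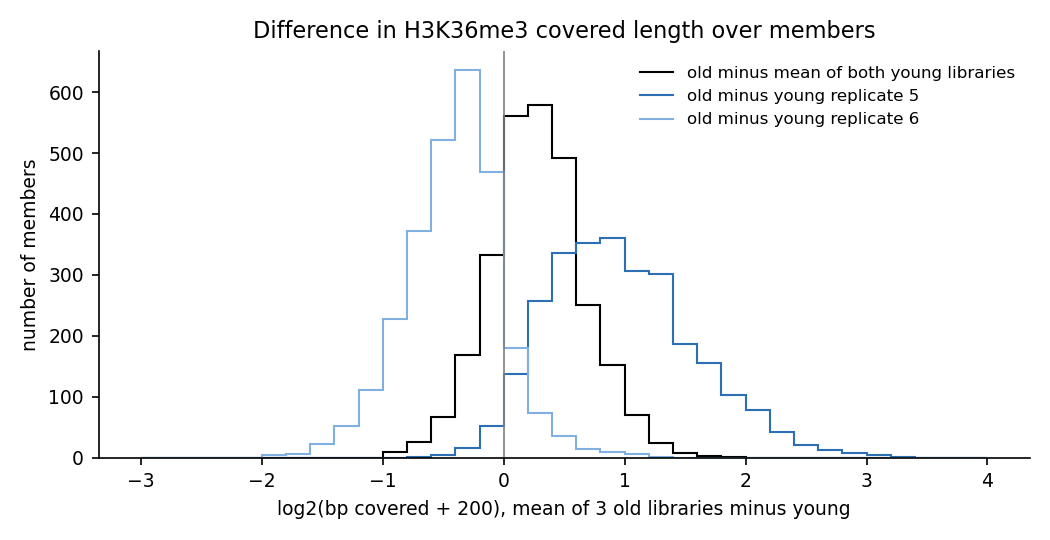
Number of members (vertical axis) by the difference in log2(bp covered + 200) between the mean of the 3 old libraries and the young libraries (horizontal axis, old minus young). The black line uses the mean of both young libraries, the dark blue line young replicate 5 alone and the light blue line young replicate 6 alone. The medians are 0.27, 0.92 and -0.38.

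The members with the largest excess in old, among the 121, were chr2:168034474-168039748, chr2:156695260-156702660, chr3:32433185-32435517, chr6:97120766-97123763 and chr10:111428144-111430975. Their log2 differences were 1.89, 1.85, 1.62, 1.59 and 1.49, each with an adjusted p of 1.00 by limma. Over chr2:168034474-168039748, H3K36me3 covered 3516, 3405 and 5012 bp in old replicates 4, 5 and 6, and 229 and 2689 bp in young replicates 5 and 6. The old libraries lay above both young ones, but the difference between the young libraries was larger than that between old and young replicate 6.

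Over chr6:97120766-97123763, coverage was 2265, 2879 and 1859 bp in old replicates 4, 5 and 6, and 370 and 1008 bp in young replicates 5 and 6. The H3K4me3 neighbour of this member lay 3907 bp away and had similar coverage at both ages, with 1968 and 2098 bp in old replicates 7 and 8 and 2027 and 1883 bp in young replicates 7 and 8. The single member with less coverage in all old libraries was chr6:124663571-124667407, with 1568, 2314 and 2795 bp in old replicates 4, 5 and 6 and 2854 and 3011 bp in young replicates 5 and 6. Old replicate 6 lay just below young replicate 5 there.

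Score percentiles gave no called difference either. Limma over the 16247 stable regions gave 0 calls (0% of those tested), with a smallest adjusted p of 0.808, and at an unadjusted p under 0.05 it gave 195 regions higher in old (1.2%) and 428 lower (2.63%). Of these, 18 and 94 were members. In 584 members (21.3%) all 3 old libraries ranked below both young libraries, against 17% of all stable regions, and in 107 (3.9%) all ranked above, against 6.07%. The median difference over members, old minus young, was -6.06 percentile points, against -2.84 over all stable regions. It was 1.77 within title number 18, -10.5 with young replicate 5 left out and -2.01 with old replicate 4 left out, the library with the lowest percentile over members.

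The H3K4me3 regions beside members had no called difference in length with age in the main fit, but 2 in a fit over shared regions alone. Their median log2 difference in covered length, old minus young, was -0.02, against -0.01 over all shared H3K4me3 regions and -0.15 for neighbours within title number 18. With 1 library left out it ran from -0.10 to 0.071. Limma over 17307 merged H3K4me3 regions gave 0 calls (0% of those tested), with a smallest adjusted p of 0.348. At an unadjusted p under 0.05 it gave 1046 regions higher in old (6.04%) and 207 lower (1.2%), of which 37 (1.31%) and 26 (0.921%) were neighbours. Both old libraries exceeded both young ones at 331 neighbours (11.7%), against 16.5% of regions tested, and fell below both at 464 (16.4%), against 14.6%. All neighbours are by choice covered in all 4 libraries, so the 14489 shared regions are the closer comparison. Among these, both old libraries exceeded both young ones at 12.6% and fell below both at 16.2%. A fit over the shared regions alone gave, at an unadjusted p under 0.05, 359 higher in old (2.48%) and 212 lower (1.46%), with 45 (1.59%) and 38 (1.35%) neighbours among them. At an adjusted p under 0.05 by limma, that fit called 11 of the 14489 shared regions and 2 of the 2822 neighbours. The smallest adjusted p by limma was 0.00068 over the shared regions and 0.0113 over neighbours.

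The count of H3K4me3 calls rested on single libraries, on the pseudocount and on which regions were fitted. Limma called 94 regions without old replicate 7, 16 without old replicate 8, 60 without young replicate 7 and 16 without young replicate 8, or 0.578, 0.0994, 0.355 and 0.0943% of those tested. Of the 2822 neighbours of members 12, 3, 1 and 0 were called, or 0.425, 0.106, 0.0354 and 0%. A lone library was then assumed to vary like the other age. With a pseudocount of 1 bp it called 849 regions (4.91%), of which 1 was a neighbour.

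The longest H3K4me3 neighbours included chr11:23973635-23984165, beside the member chr11:23985070-23988703 at a gap of 904 bp. Its covered length was 9244 and 10296 bp in old replicates 7 and 8, and 9272 and 10115 bp in young replicates 7 and 8, so the ages overlapped. The member beside it was covered over 2568, 2666 and 2139 bp in old replicates 4, 5 and 6, and 332 and 3238 bp in young replicates 5 and 6. The other 4 long neighbours lay beside chr5:123595914-123599986, chr4:114737186-114743586, chr19:5795554-5798057 and chr17:84583987-84586979, and the last of these members lay wholly inside its neighbour.

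H3K4me3 beside members was longer and reached high scores more often than elsewhere in each of the 4 libraries, a number with which no sign-flip test can reach 0.05. This comparison and that of H3K27me3 at the same regions were chosen after values had been seen. Median covered length at neighbours was 1725 and 2002 bp in old replicates 7 and 8 and 1975 and 1813 bp in young replicates 7 and 8, against 1539, 1758, 1744 and 1584 bp in the same libraries at the 11667 other shared regions. The mean difference was 222.5 ± 25.2 bp (SD, n = 4 libraries), with neighbours longer in 4 of 4. The exact sign-flip permutation test gave a two-sided p of 0.125, the smallest that 4 libraries allow. Distance to a member was counted from the edges of the H3K4me3 region, so a longer region had more room for a member within 5 kb. Length was therefore not independent of the choice of neighbours, and the part of this in the difference was not tested. A score of at least 3100 was reached by 85.3 ± 0.426% of neighbours and 61.3 ± 0.605% of other shared regions (SD, n = 4 libraries, exact permutation p = 0.125).

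The frequency of high scores was shared with H3K4me3 regions beside long blocks. Of the 808 shared H3K4me3 regions near a long block and no member, 85.3 ± 0.440% reached a score of 3100 (SD, n = 4 libraries). The difference of neighbours of members from them was 0.0307 ± 0.197 percentage points, higher in 2 of 4 libraries, with an exact permutation p of 0.75. In median covered length, neighbours of members exceeded these 808 regions by 60.6 ± 18.7 bp (SD, n = 4 libraries). They were longer in 4 of 4, with an exact permutation p of 0.125.

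Polycomb marking was uncommon at H3K4me3 regions beside members. H3K27me3 islands touched 1.95, 2.52 and 2.20% of neighbours in old replicates 1, 2 and 3, and 2.66 and 2.87% in young replicates 2 and 3. In the same libraries they touched 15.1, 15.9, 16.2, 17.7 and 18.3% of other shared H3K4me3 regions. The means were 2.44 ± 0.367% for neighbours and 16.7 ± 1.33% for other regions, a difference of -14.2 ± 1.01 percentage points (SD, n = 5 libraries), lower in 5 of 5. The exact two-sided permutation p was 0.0625, the smallest that 5 libraries allow. In young replicate 1 the shares were 0.354% and 1.75%. With it, the difference was -12.1 percentage points, lower in 6 of 6 libraries, with an exact permutation p of 0.03125.

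The difference was smaller among H3K4me3 regions with high scores, which were not matched on length or on score above the limit used. Of regions with a score of at least 3100 in all 4 H3K4me3 libraries, islands touched 1.33 ± 0.219% of 2297 neighbours and 5.38 ± 1.04% of 6450 others (SD, n = 5 libraries). The difference was -4.05 ± 0.916 percentage points, lower in 5 of 5 libraries, with an exact permutation p of 0.0625. Beside long blocks the share was 3.04 ± 0.367%, and neighbours of members were lower by a mean of -0.607 ± 0.572 percentage points, in 5 of 5 libraries (SD, n = 5, exact permutation p = 0.0625). With young replicate 1 the mean difference from regions beside long blocks was -0.488, lower in 5 of 6 libraries and higher in 1 (exact permutation p = 0.09375).

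**Figure D4:**
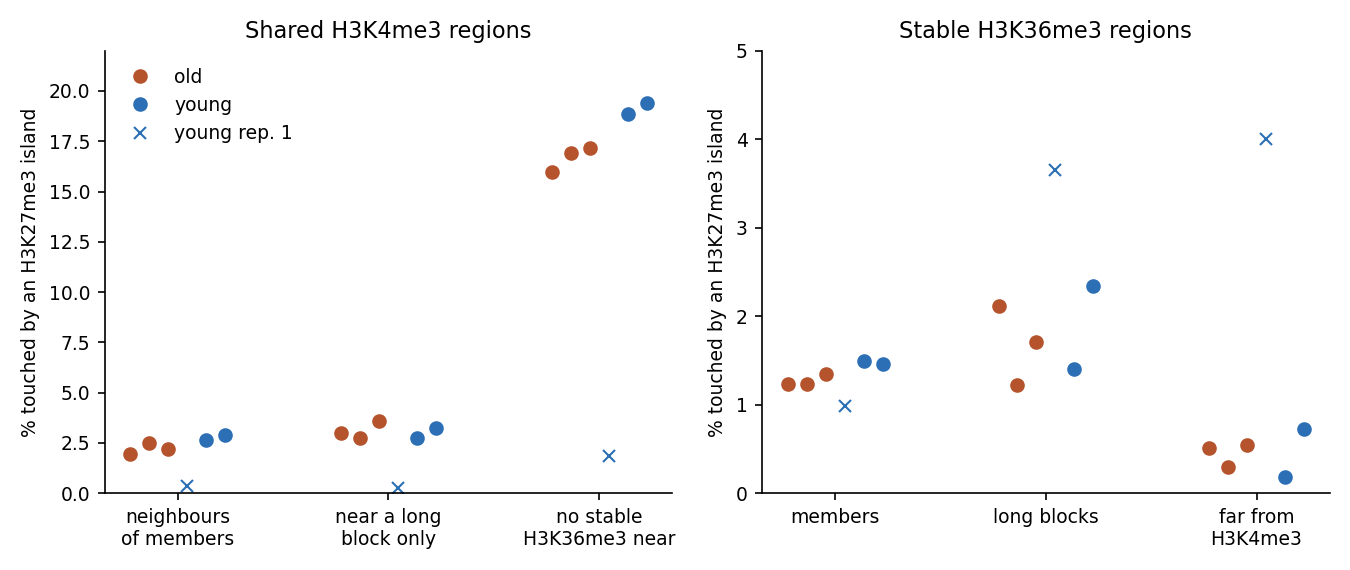
Percent of regions touched by an H3K27me3 island (vertical axes) in each H3K27me3 library, old in orange and young in blue, with young replicate 1 as a cross. Left, shared H3K4me3 regions that are neighbours of members, that lie near a long block and no member, or that have no stable H3K36me3 region within 5 kb. Right, members, long blocks and stable regions far from H3K4me3. Without young replicate 1 the neighbours lie between 1.95 and 2.87%, and the regions with no stable H3K36me3 nearby between 15.96 and 19.4%.

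H3K27me3 on the members themselves was also rare. Islands touched 1.24, 1.24 and 1.35% of members in old replicates 1, 2 and 3, and 1.49 and 1.46% in young replicates 2 and 3, with 0.984% in young replicate 1. The mean was 1.36 ± 0.119%, against 1.76 ± 0.474% of long blocks, a difference of -0.403 ± 0.472 percentage points (SD, n = 5 libraries), lower in 3 and higher in 2, with an exact two-sided permutation p of 0.25. Where 50% of a region had to be covered the difference was 0.338 (exact permutation p = 0.0625), so its direction depended on how much overlap counted. Long blocks were wider than members (median 13232.5 against 4816 bp), and the part of width in either difference was not tested.

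Members were touched by H3K27me3 more often than stable regions far from H3K4me3 in 5 of the 6 libraries. The far regions had a share of 0.454 ± 0.213%, and the difference was 0.901 ± 0.242 percentage points (SD, n = 5 libraries), higher in 5 of 5 (exact permutation p = 0.0625, again the lowest that 5 libraries allow). In young replicate 1 it ran the other way, with 0.984% of members and 4.01% of far regions. With that library the mean difference was 0.248, with an exact permutation p of 0.8125, so the difference rested on leaving it out. Without that library the difference was 0.239 where 50% of a region had to be covered. Members were also wider than far regions (median 4816 against 4024.5 bp), and the part of width in this difference was not tested. Over 11 of the sign-flip tests computed, the smallest Benjamini-Hochberg adjusted permutation p was 0.153. Tests with all 6 H3K27me3 libraries, among high-score H3K4me3 regions or under other alternative settings were not among the 11, and their p-values are unadjusted.

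Of the 2745 members, 2667 (97.2%) were touched by none of the 5 H3K27me3 libraries, 78 by any and 16 by all 5. Among these 78, 1 member was touched by all 3 old and no young library and 4 by both young and no old library. No such share was computed over other regions, so these counts are a description only. The member with the most H3K27me3 was chr2:56959075-56966318, which overlapped its H3K4me3 neighbour by 2930 bp. Islands covered 6518, 7244 and 6318 bp of it in old replicates 1, 2 and 3, and 5926, 7244 and 7244 bp in young replicates 1, 2 and 3. The same 7244 bp held 7227, 5868 and 4459 bp of H3K36me3 in old replicates 4, 5 and 6 and 1365 and 4330 bp in young replicates 5 and 6, so that peaks of both marks were called over the same bases.

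The others of the 5 with the most H3K27me3 were chr7:19888840-19894111, chr5:36811594-36816625, chr9:3021930-3026469 and chr10:126953564-126958556. The member chr9:3021930-3026469 lay wholly inside H3K4me3 and was the only one touched by all 16 libraries of the 3 marks. Its H3K27me3 coverage was 4469, 4540 and 4469 bp in old replicates 1, 2 and 3 and 4540, 4540 and 4469 bp in young replicates 1, 2 and 3. It also held 1998 bp of H3K36me3 peaks in young replicate 4, although that library touched few members. Control libraries were not available here, so whether the peaks at this site were specific to the 3 marks was not tested.

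Few members lay on the X chromosome, as was so for stable H3K36me3 regions in general. On X were 8 members (0.291%), 1 long block (0.0451%) and 59 of the stable regions far from H3K4me3 (0.523%), together 68 of 16247 (0.419%). Of all H3K36me3 peaks, 0.513 to 0.943% in the old libraries and 0.604 and 1.57% in young replicates 5 and 6 lay on X. Of H3K4me3 peaks, 3.08 to 3.22% in the 4 libraries did. Of H3K27me3 islands, 0.598 to 0.847% did, so a low share on X was not particular to H3K36me3. By region, 7 of the 469 shared H3K4me3 regions on X (1.49%) had a member within 5 kb, against 2815 of 14016 on the autosomes (20.1%). On single autosomes the share ran from 15.7% on chromosome 12 to 25.4% on chromosome 17, so X lay below all 19. These shares follow from the rule and are given without a test.

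The shares in single lists, which come from the same peaks and the same distance limit as the rule, are also a description. A peak of H3K36me3 lay within 5 kb of 3.62, 5.33 and 13.2% of shared H3K4me3 regions on X in old replicates 4, 5 and 6, and of 8.96 and 23.2% in young replicates 5 and 6. On autosomes the shares in these libraries were 26.7, 37.1, 41.1, 36.6 and 49.3%. H3K4me3 on X was also lower in score, with 53.9 and 55.4% of shared regions at 3100 or above in old replicates 7 and 8 and 48.4 and 50.1% in young replicates 7 and 8, against 65.8 to 67.3% on autosomes. The sex of the mice is not given in the sources used here, and the part of H3K4me3 score in the contrast was not tested.

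**Figure D5:**
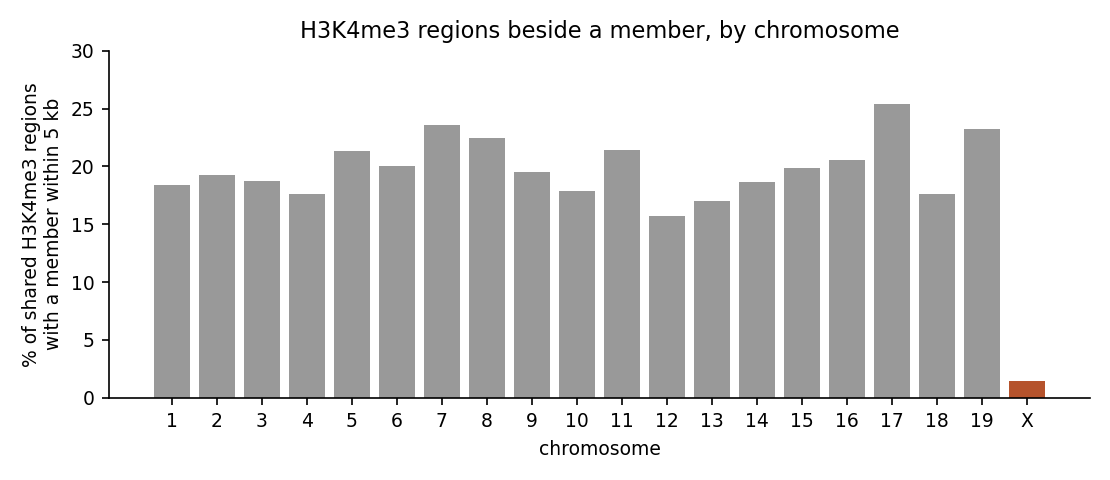
Percent of shared H3K4me3 regions with a member within 5 kb (vertical axis, from 0) for each autosome and X. The autosomes lie between 15.7% and 25.4%, and X, in orange, at 1.49%.

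The widest of the 8 members on X were chrX:147959931-147967061 and chrX:71481956-71489009. Over chrX:71481956-71489009, which touched its H3K4me3 neighbour, H3K36me3 covered 1861, 4606 and 6238 bp in old replicates 4, 5 and 6, and 740 and 6738 bp in young replicates 5 and 6. The libraries kept the order seen over all members, with young replicate 5 lowest and young replicate 6 highest.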

How the data were processed

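The deposited files were 1 peak list per library on mouse build mm9. The submitters' processing notes name CASAVA 1.4, SICER and MACS. Not given in the sources used here are the aligner, thresholds, control libraries, read depth and any pooled calls. The deposited score of a peak has no stated unit, so scores were ranked within a list. H3K27me3 bounds lie on a 200 bp grid.

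Samples were grouped by the mark and age in their titles. The members, lists and regions described were chosen with earlier results of these data known. Regions named are those with the highest mean score percentile, those with the largest age difference of each sign whose ages did not overlap, those with the most H3K27me3, those with the highest score in young H3K36me3 replicate 4, those at the limits of the rule, those around the H3K4me3 regions with the most members, and those beside the longest H3K4me3. No member was called by limma. The X chromosome and the H3K4me3 neighbours were added after values were seen. Lists of genes and marker genes that had been planned were not used, for lack of an mm9 annotation.

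Fits used limma 3.58.1 in R 4.3.3 (trend, empirical Bayes, Benjamini-Hochberg over all tested regions, threshold 0.05, pseudocount 200 bp) and were tested on simulated data. Classes of regions were compared by exact two-sided sign-flip permutation tests on the difference between classes within each library. Other steps used Python 3.11.15, numpy 2.4.6, pandas 2.3.3 and scipy 1.17.1. Alternatives changed the pseudocount, filters, libraries, distance and overlap.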

Additional observations from a re-analysis of the deposited data

How the results depend on the processing

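The number of members, 2745, was 1534 within 2 kb of H3K4me3, 4428 within 10 kb, 313 where each library had to cover 50% of the region, 1252 from peaks at or above the median score, and 2920 to 3797 with 1 library left out. The share touched by young H3K36me3 replicate 4, 5.72%, was 0.109% at 50% coverage. The median log2 difference in covered length over members, 0.27, was 1.48 with all 6 libraries, -0.045 with each library centred, and ran from -0.38 to 0.92 with 1 library left out. The H3K27me3 difference of members from long blocks, -0.403 percentage points, was 0.338 at 50% coverage, -0.781 with all 6 libraries, -0.0701 with an island within 5 kb and -0.0433 with islands at or above the median score. From far regions it was 5.06 with an island within 5 kb, against 0.901. The difference of H3K4me3 neighbours from other regions, -14.2, was -12.1 with all 6 libraries (exact permutation p = 0.03125). The cause of these shifts was not tested. H3K36me3 calls by limma stayed at 0 under 13 alternatives for covered length and 8 for score percentile. H3K4me3 calls, 0, were 849 with a pseudocount of 1 bp, 11 among regions covered in all 4 libraries and 16 to 94 with 1 library left out. Deviations of samples with the same replicate number, which is not the number in the titles, correlated at -0.037 to 0.0046 over 4 pairs. Where an age has 2 libraries their deviations mirror each other, so these values cannot decide whether samples are paired. The samples were treated as unpaired. With a block for replicate number, limma called 0 regions in each of the 3 fits and the median over members was 0.41. Pairing by the number in the titles was not tested. Read depth is unknown, and 5 or fewer libraries a test cannot reach a permutation p of 0.05.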
